A study of Mus musculus with 8 samples.

Results

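The 9 genes described are Hoxa9, Meis1, the PBX genes Pbx2 and Pbx3, and 5 further genes of the HoxA and HoxB clusters, Hoxa3, Hoxa5, Hoxa7, Hoxb3 and Hoxb4. They were chosen by name: every probe set whose single gene symbol in the platform annotation was one of the 9 was kept and is given on its own. This gave 21 probe sets of 45037 and 9 genes of 18193. The tested cells were L-GMPs, sorted by flow cytometry from the bone marrow of leukaemic mice whose genotype label is HoxA9+Meis1 AML (4 arrays, replicates A to D). They were set against GMPs sorted from bone marrow of mice labelled Normal (4 arrays, replicates A to D). GMP is the usual abbreviation of the granulocyte-macrophage progenitor, a committed myeloid precursor. The labels used here do not say how HoxA9 and Meis1 were introduced, how many mice or leukaemias the arrays stand for, or the strain and age of the animals. Separate animals per array are not stated either, and each p-value therefore reflects array-to-array spread that may be technical.

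HOXA9 is a homeodomain transcription factor that binds DNA together with proteins of the TALE class, chiefly PBX and MEIS family members. In normal blood formation, Hoxa9 and Meis1 are expressed in stem and early progenitor cells and decline as myeloid cells mature. High levels of both are found in many acute myeloid leukaemias, and joint overexpression of the pair transforms mouse bone marrow. The clustered Hox genes lie side by side on the chromosome and are kept active by a complex of the methyltransferase KMT2A with menin (Men1) and LEDGF (Psip1), and kept silent by Polycomb proteins.

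The promoter sequences of 4 of the genes are shown because each gene had a probe set whose direction and call held under every alternative setting in which that probe set was tested. Each window runs from 250 bases before to 50 bases after the annotated start (RefSeq, GRCm38.p6, 5' to 3'). Capitals mark the MEIS motif TGACAG, read on either strand. The PBX-HOX motif TGATNNAT was searched in the same way, with no overlap between the motifs in these windows.
Hoxa9, chr6:52227321-52227620, minus strand: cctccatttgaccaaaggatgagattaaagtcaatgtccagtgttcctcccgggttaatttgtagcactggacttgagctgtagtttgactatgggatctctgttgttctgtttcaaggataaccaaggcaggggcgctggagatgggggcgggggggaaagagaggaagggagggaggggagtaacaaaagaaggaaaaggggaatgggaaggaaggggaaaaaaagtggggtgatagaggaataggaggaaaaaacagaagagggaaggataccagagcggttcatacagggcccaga
Hoxa3, chr6:52213018-52213317, minus strand: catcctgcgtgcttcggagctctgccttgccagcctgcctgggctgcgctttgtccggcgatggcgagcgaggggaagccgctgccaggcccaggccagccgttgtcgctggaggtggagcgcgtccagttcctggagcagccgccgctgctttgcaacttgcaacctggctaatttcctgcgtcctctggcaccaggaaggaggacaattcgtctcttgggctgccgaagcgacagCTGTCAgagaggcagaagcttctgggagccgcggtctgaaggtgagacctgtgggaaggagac
Hoxa5, chr6:52204538-52204837, minus strand: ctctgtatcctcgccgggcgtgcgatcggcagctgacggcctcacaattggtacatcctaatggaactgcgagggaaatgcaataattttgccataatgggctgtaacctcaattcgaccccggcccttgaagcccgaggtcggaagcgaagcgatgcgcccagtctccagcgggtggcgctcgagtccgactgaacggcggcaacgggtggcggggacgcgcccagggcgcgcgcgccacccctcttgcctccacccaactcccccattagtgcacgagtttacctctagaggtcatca
Meis1, chr11:19018920-19019219, minus strand: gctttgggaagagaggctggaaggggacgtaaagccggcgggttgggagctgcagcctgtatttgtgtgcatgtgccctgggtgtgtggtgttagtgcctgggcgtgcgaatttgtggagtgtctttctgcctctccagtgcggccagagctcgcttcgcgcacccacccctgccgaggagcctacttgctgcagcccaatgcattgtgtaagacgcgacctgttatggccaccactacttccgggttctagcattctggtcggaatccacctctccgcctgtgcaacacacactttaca

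Windows were found for 7 of the 9 genes, all but Hoxb3 and Pbx3. The MEIS motif was present in 1 of the 7, that of Hoxa3, where it reads CTGTCA from base 238 on. It occurred in 19.2% of all 32851 promoter windows. The PBX-HOX motif was present in 0 of the 7 windows and in 8.85% of all windows. A match here is a run of letters and not a bound site. The GC content was 49.7% in the Hoxa9 window, 58.3% in that of Meis1, 64.0% in that of Hoxa3 and 61.7% in that of Hoxa5, against a median of 52.7% over all windows.

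Values are log2 of the deposited RMA intensities, and a change is the L-GMP mean minus the GMP mean on that scale. Of the 21 probe sets, 14 passed an adjusted p of 0.05 in limma with Benjamini-Hochberg adjustment over the whole table, against 10.9% of all probe sets. Of these 14, 2 were higher in L-GMPs (3.89% of all probe sets were) and 12 lower (7.03% of all). The L-GMP and GMP arrays did not overlap in 15 of the 21, against 17.1% of all probe sets. The median change was -0.55 over the 21 and 0.00 over all probe sets. The array medians lay at 5.24 to 5.30 in L-GMPs and at 5.33 to 5.49 in GMPs. Over the whole table, calls higher in L-GMPs made up 35.6% of all calls as deposited and 65.9% after each array was centred on its median. After that centring 11 of the 21 probe sets passed, against 14.5% of all probe sets. Since the 9 genes were picked with earlier results of these arrays in view, these shares are a description and not a test.

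Over the whole table, arrays correlated at 0.983 to 0.994 within groups and at 0.967 to 0.974 between them, across probe sets, which are not independent replicates. L-GMP replicate B stood apart on the second principal component (12.6% of the variance) and GMP replicate A on the third (9.71%). The 3' minus 5' difference of the Gapdh control probe sets was 1.24 to 1.55 on L-GMP arrays and 1.46 to 2.74 on GMP arrays. GMP replicate D was the highest. Without GMP replicate D, 9 of the 21 probe sets passed (7.2% of all probe sets). Without both GMP replicate D and L-GMP replicate B, 10 did (7.48% of all). Without GMP replicate A, 11 did (11.8% of all). Leaving out GMP replicate B instead gave 10 of the 21 and 6.6% of all. The part of RNA quality in the results was not tested. No detection call was used. As a guide to dim signal, the 10th percentile of an array lay at 2.84 to 2.92 and the lower quartile at 3.65 to 3.75.

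Hoxa9 had 2 probe sets, and they moved in opposite directions. In probe set 1421579_at the L-GMP arrays read 11.10, 12.29, 12.20 and 10.87 (replicates A to D), against 6.84, 6.82, 6.74 and 6.78 on the GMP arrays. Every L-GMP array lay more than 4 units above every GMP array, with replicates B and C above A and D. The mean was 11.62 ± 0.74 in L-GMPs and 6.79 ± 0.04 in GMPs (SD, n = 4 each), a rise of 4.82 (SE 0.29, 28.3-fold, adjusted p = 3.1e-06). That was the 5th largest rise among the 45037 probe sets, with the signal between the 97.0 and 99.3 percentiles of the L-GMP arrays and between the 67.6 and 68.6 percentiles of the GMP arrays.

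In the other Hoxa9 probe set, 1455626_at, the L-GMP arrays read 2.91, 2.79, 2.54 and 2.80, against 9.19, 9.79, 9.27 and 9.44 on the GMP arrays. The groups were far apart and each was tight: 2.76 ± 0.16 in L-GMPs and 9.42 ± 0.26 in GMPs (SD, n = 4 each). The change of -6.66 (SE 0.15, adjusted p = 1.85e-09) was -4.94 with an offset of 16 added before the log. The L-GMP signal lay between the 4.93 and 10.4 percentiles of its arrays, at the dim end, so that the size of the fall is uncertain, while the GMP signal lay between 90.4 and 93.3. The within-array difference between the probe sets, 1421579_at minus 1455626_at, averaged 8.85 ± 0.84 in L-GMPs and -2.63 ± 0.26 in GMPs (SD, n = 4 each), a shift of 11.48, whose size shares that uncertainty. Its exact permutation p was 0.0286 (2-sided), the smallest that 4 against 4 arrays allow, and 0.114 after adjustment over the 12 pairs of probe sets compared. Only 3 of the 12 pairs were at that smallest p, and with so few a pass after adjustment is out of reach in this design, whatever the size of a shift. Averaging the 2 probe sets gives a change of -0.92, the opposite sign to the brighter one (adjusted p = 0.00328). The files do not say which part of the Hoxa9 transcript either probe set reads.

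Meis1, the TALE partner named in the genotype label, was lower in L-GMPs in all 3 of its probe sets. In 1459423_at the L-GMP arrays read 3.59, 4.02, 3.88 and 4.68, against 7.15, 7.05, 7.27 and 6.89 on the GMP arrays. The highest L-GMP array, replicate D, was still more than 2 units below the lowest GMP array. The change was -3.05 (SE 0.20, adjusted p = 6.6e-06), with means of 4.04 ± 0.46 in L-GMPs and 7.09 ± 0.16 in GMPs (SD, n = 4 each). In 1450992_a_at the L-GMP arrays read 3.36, 3.43, 3.39 and 3.11, against 5.40, 5.22, 5.48 and 5.45 on the GMP arrays, a fall of 2.07 on the log2 scale (SE 0.11, adjusted p = 1.2e-06), with a change of -1.15 after the offset of 16. All 4 L-GMP arrays were below their lower quartile in this probe set, whereas the GMP arrays were near their median.

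The remaining Meis1 probe set, 1443260_at, read 3.34, 4.48, 3.50 and 3.44 on the L-GMP arrays, against 4.84, 5.23, 4.99 and 5.60 on the GMP arrays. L-GMP replicate B stood about 1 unit above the other L-GMP arrays, and the groups did not overlap. The change was -1.47 (SE 0.25, adjusted p = 0.00448), and -0.83 after the offset of 16 (adjusted p = 0.0135). The shift of 1459423_at relative to 1443260_at was -1.57 (exact permutation p = 0.0286, 0.114 adjusted) and relative to 1450992_a_at -0.98 (exact permutation p = 0.0571, 0.114 adjusted), under the same limit of the design. Since Hoxa9 moved both ways and Meis1 was lower throughout, and since the transcript parts read are unknown, these genes do not check the group labels.

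**Figure D1:**
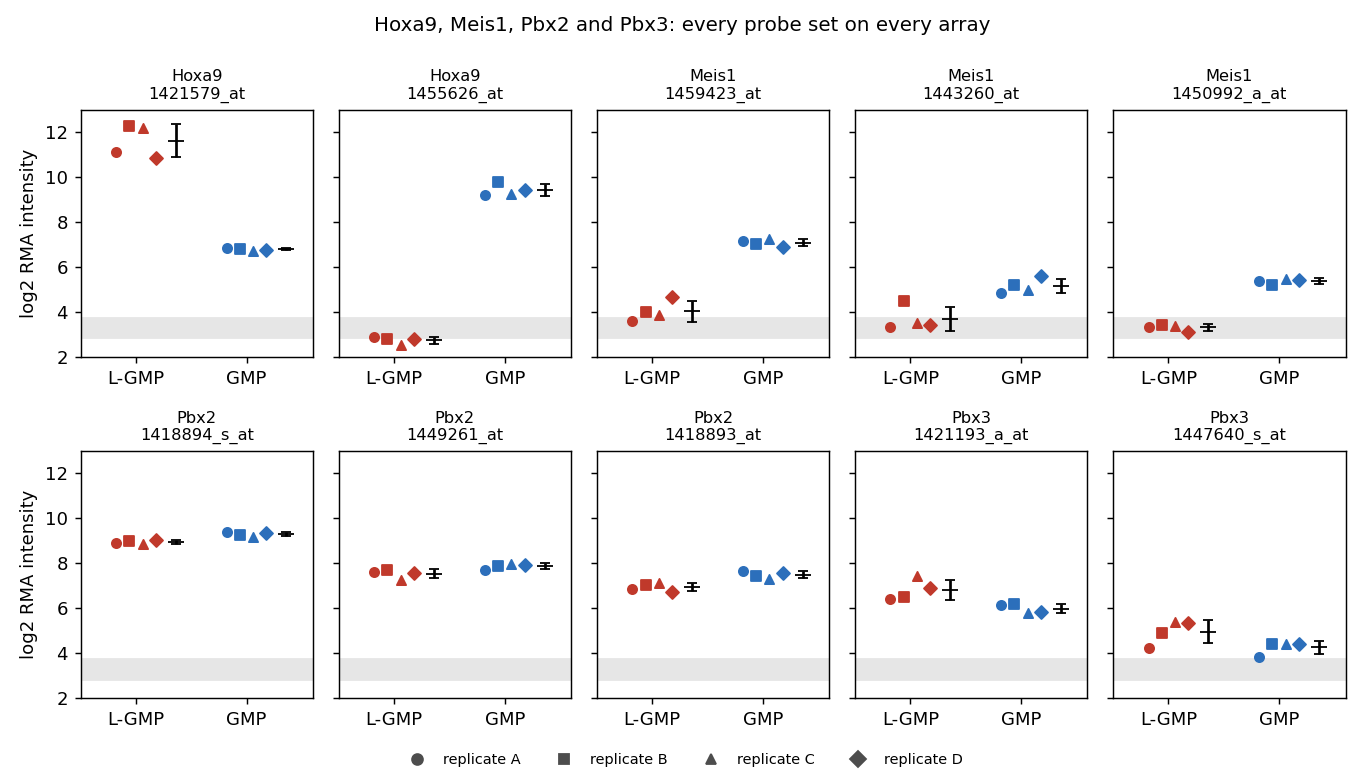
Log2 RMA intensity (vertical axis) of every Hoxa9, Meis1, Pbx2 and Pbx3 probe set in L-GMPs (red, left) and GMPs (blue, right). Points are single arrays with a symbol for each replicate letter, bars are mean ± SD (n = 4), and the grey band runs from the lowest 10th percentile of the arrays, 2.84, to the highest lower quartile, 3.75. The Hoxa9 probe sets moved in opposite directions, with L-GMP means of 11.62 and 2.76 against GMP means of 6.79 and 9.42, and all 3 Meis1 probe sets were lower in L-GMPs.

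The PBX genes encode the TALE cofactors that bind DNA beside HOX proteins and help to hold MEIS1 on the complex. Pbx3, whose product is a partner of HOXA9 in leukaemia cells, was higher in L-GMPs in 1421193_a_at, where the L-GMP arrays read 6.44, 6.49, 7.42 and 6.91, against 6.14, 6.19, 5.79 and 5.84 on the GMP arrays. The groups did not overlap, though the lowest L-GMP array and the highest GMP array were close. The rise was 0.82 (SE 0.21, adjusted p = 0.0306), with means of 6.81 ± 0.46 in L-GMPs and 5.99 ± 0.20 in GMPs (SD, n = 4 each). The call was lost without GMP replicate B, C or D or L-GMP replicate D (adjusted p = 0.0545 to 0.0883) and after the offset of 16 (0.69, adjusted p = 0.055). It was also lost with the replicate letter as a block (adjusted p = 0.0694) and without both GMP replicate D and L-GMP replicate B (0.0618).

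The other Pbx3 probe set, 1447640_s_at, read 4.25, 4.93, 5.38 and 5.34 on the L-GMP arrays, against 3.82, 4.43, 4.40 and 4.43 on the GMP arrays. Replicate A was the lowest array of each group, and L-GMP replicate A lay within the GMP range. The change of 0.71 (SE 0.24, adjusted p = 0.0956) did not pass, but did without L-GMP replicate A, at 0.95 (adjusted p = 0.0144), and after median centring, at 0.85 (adjusted p = 0.0361). It also passed with the replicate letter as a block (adjusted p = 0.02). With the offset of 16 the change was 0.44 (adjusted p = 0.133). Within arrays the 2 probe sets differed by 1.84 ± 0.32 in L-GMPs and 1.72 ± 0.44 in GMPs (SD, n = 4 each), a shift of 0.12 (exact permutation p = 0.686).

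Pbx2, a broadly expressed PBX family member, was slightly lower in L-GMPs. In 1418893_at the L-GMP arrays read 6.88, 7.04, 7.14 and 6.75, against 7.65, 7.44, 7.31 and 7.58 on the GMP arrays, a fall of 0.55 on the log2 scale (SE 0.12, adjusted p = 0.0183). In 1418894_s_at they read 8.92, 8.98, 8.85 and 9.03, against 9.38, 9.25, 9.18 and 9.36 on the GMP arrays, a fall of 0.35 (SE 0.10, adjusted p = 0.0484). Each L-GMP array was below each GMP array in both probe sets. The third, 1449261_at, had L-GMP arrays at 7.27 to 7.70 and GMP arrays at 7.71 to 7.98, and its change of -0.33 (SE 0.12) did not pass (adjusted p = 0.123).

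Neither Pbx2 call was firm. That of 1418894_s_at was lost when any single array was left out (adjusted p = 0.0596 to 0.12), and that of 1418893_at without GMP replicate D or L-GMP replicate A (0.0568 and 0.0533). Both calls were also lost with the replicate letter as a block (adjusted p = 0.0973 and 0.0592, in that order). The fit without both GMP replicate D and L-GMP replicate B lost them too (0.151 and 0.068). Centring each array on its median raises the median change of all probe sets to 0.14, and under it the change was -0.21 in 1418894_s_at (adjusted p = 0.214) and -0.40 in 1418893_at (adjusted p = 0.0736), neither past the threshold.

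Of the HoxA genes, Hoxa5, which restrains erythroid and favours myeloid differentiation of human progenitors, was lower in L-GMPs in both of its probe sets. In 1443803_x_at the L-GMP arrays read 4.57, 5.13, 4.75 and 4.77, against 5.75, 6.09, 5.71 and 5.87 on the GMP arrays, a fall of 1.05 on the log2 scale (SE 0.14, adjusted p = 0.00101). In 1448926_at they read 4.09, 3.80, 4.36 and 3.96, against 4.97, 5.60, 4.92 and 5.84 on the GMP arrays, a fall of 1.28 (SE 0.21, adjusted p = 0.00385), with a change of -0.80 after the offset of 16. The groups did not overlap in either, and the shift between the 2 probe sets was 0.23 (exact permutation p = 0.429). In 1448926_at, GMP replicates B and D were the higher pair. Probe set 1443803_x_at can, by its suffix, match several transcripts.

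Hoxa3, an anterior gene of the cluster known for its part in thymus and neck development, had 4 probe sets that differed in behaviour. The tightest values were those of 1427433_s_at, which by its suffix can match several transcripts. Its L-GMP arrays read 4.76, 4.68, 4.68 and 4.77, against 5.52, 5.47, 5.45 and 5.66 on the GMP arrays. This fall of 0.81 on the log2 scale (SE 0.10, adjusted p = 0.000462) exceeded the SD of either group, 0.05 in L-GMPs and 0.09 in GMPs. In 1452421_at the L-GMP arrays spread widely, at 5.44, 6.80, 4.37 and 4.83, against 7.46, 6.83, 6.70 and 6.58 on the GMP arrays. L-GMP replicate B lay within the GMP range there, and the fall of 1.53 (SE 0.43, adjusted p = 0.0482) was lost without any single array other than L-GMP replicate B (adjusted p = 0.0843 to 0.109), after both scalings (0.0517 and 0.0558), after the offset of 16 (0.0832) and with the trended prior (0.0757). The mean of the gene's 4 probe sets changed by -0.60 (adjusted p = 0.0224).

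The remaining Hoxa3 probe sets gave no difference past the threshold. In 1429398_at the L-GMP arrays lay at 4.64 to 4.88 and the GMP arrays at 4.40 to 5.20, a change of -0.10 (SE 0.16, adjusted p = 0.757). In 1431392_at the L-GMP arrays lay at 4.05 to 4.72 and the GMP arrays at 3.92 to 4.47, a change of 0.05 (SE 0.17, adjusted p = 0.891). The sign of these small changes turned under other settings.

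Hoxa7, the neighbour of Hoxa9 in the cluster among the genes measured, read 6.08, 6.27, 6.16 and 6.28 on the L-GMP arrays, against 6.77, 6.69, 6.45 and 6.56 on the GMP arrays (1449499_at). The groups did not overlap, at 6.20 ± 0.10 in L-GMPs and 6.62 ± 0.14 in GMPs (SD, n = 4 each), and the change was -0.42 (SE 0.11, adjusted p = 0.0334). The call was lost without GMP replicate A, B or D or L-GMP replicate A or C (adjusted p = 0.0611 to 0.0982). It was also lost after median centring (-0.28, adjusted p = 0.13) and after quantile normalization (-0.31, adjusted p = 0.0883). The same held with the replicate letter as a block (adjusted p = 0.0781) and with the trended prior (0.0548). So it did without both GMP replicate D and L-GMP replicate B (0.0801).

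In the HoxB cluster, Hoxb4, which expands mouse haematopoietic stem cells when overexpressed, showed the widest L-GMP spread of the 21 probe sets. In 1460379_at the L-GMP arrays read 6.50, 4.31, 5.72 and 7.26, against 7.48, 7.45, 7.44 and 7.32 on the GMP arrays. The SD was 1.26 in L-GMPs and 0.07 in GMPs (n = 4 each), and the order of the L-GMP arrays, D, A, C and B from high to low, was the reverse of their order in Hoxa9 probe set 1421579_at. With 4 arrays no correlation is given. All L-GMP arrays were below all GMP arrays, but the change of -1.47 (SE 0.49) did not pass (adjusted p = 0.0824), passed without L-GMP replicate D, at -1.91 (adjusted p = 0.0176), and was -0.93 without L-GMP replicate B (adjusted p = 0.0676). The dimmer 1451761_at had L-GMP arrays at 4.84 to 5.33 and GMP arrays at 4.98 to 5.69, a change of -0.19 (SE 0.17, adjusted p = 0.514).

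Hoxb3, its neighbour and a gene of early haematopoietic cells, read 3.87, 3.64, 3.90 and 3.91 on the L-GMP arrays in 1456229_at, against 4.67, 4.45, 4.61 and 4.88 on the GMP arrays. The groups did not overlap, and the fall was 0.82 on the log2 scale (SE 0.12, adjusted p = 0.00171), within the dim part of the arrays, where the L-GMP signal lay between the 23.5 and 29.2 percentiles. With the offset of 16 the change was -0.45 (adjusted p = 0.00467). In 1427605_at the L-GMP arrays lay at 3.51 to 3.96 and the GMP arrays at 3.84 to 4.26, a change of -0.35 (SE 0.13, adjusted p = 0.117). The shift between these probe sets was -0.47 (exact permutation p = 0.0571, 0.114 adjusted).

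**Figure D2:**
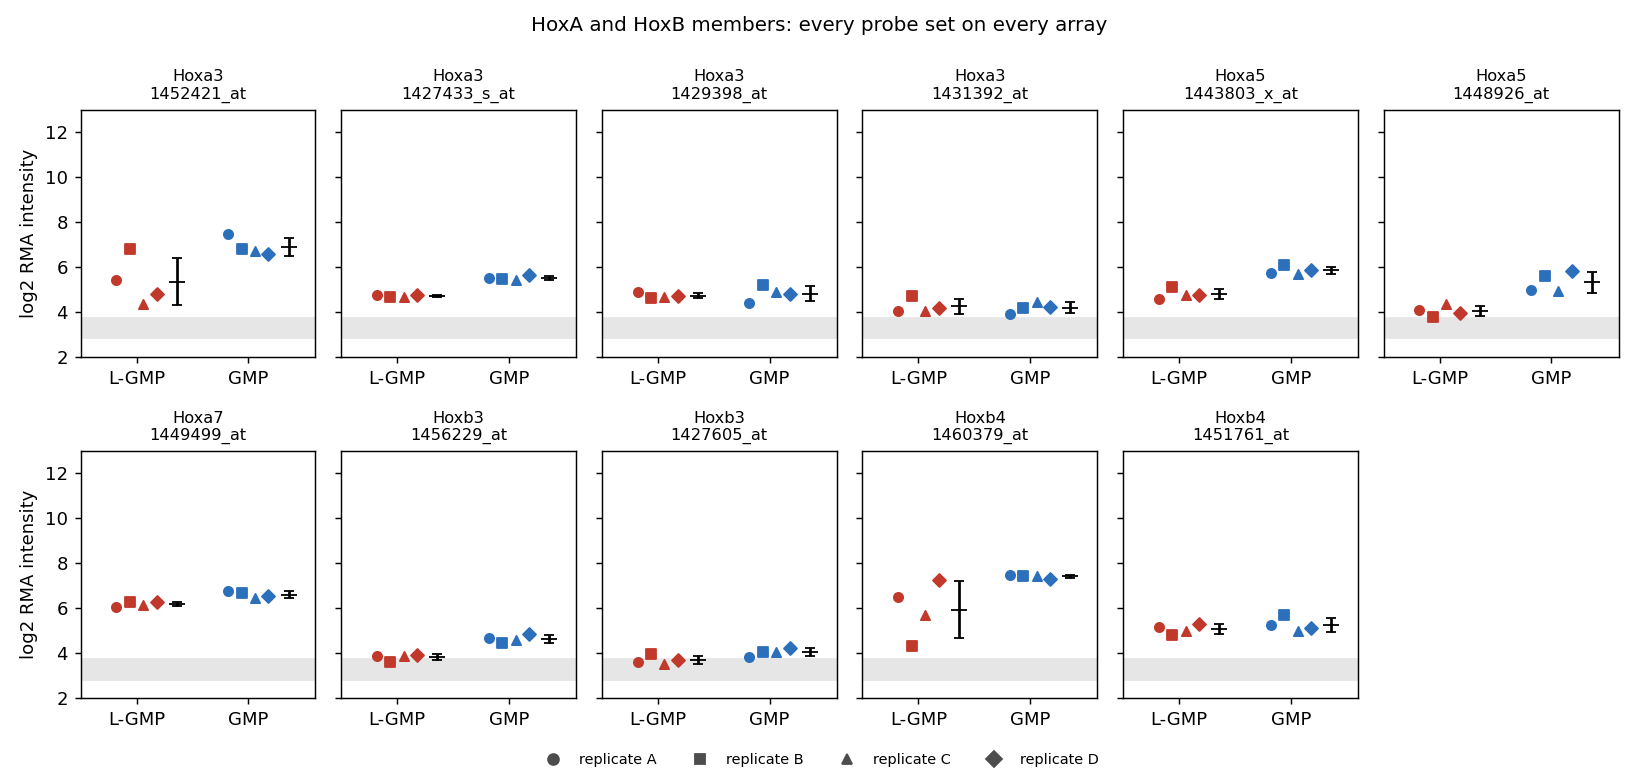
Log2 RMA intensity (vertical axis) of every probe set of Hoxa3, Hoxa5, Hoxa7, Hoxb3 and Hoxb4 in L-GMPs (red, left) and GMPs (blue, right), with points, bars (mean ± SD, n = 4) and the grey band (2.84 to 3.75) drawn as for Hoxa9. The groups do not overlap in the Hoxa5 and Hoxa7 probe sets, while the L-GMP arrays of Hoxb4 1460379_at spread from 4.31 to 7.26 below GMP arrays at 7.32 to 7.48.

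**Figure D3:**
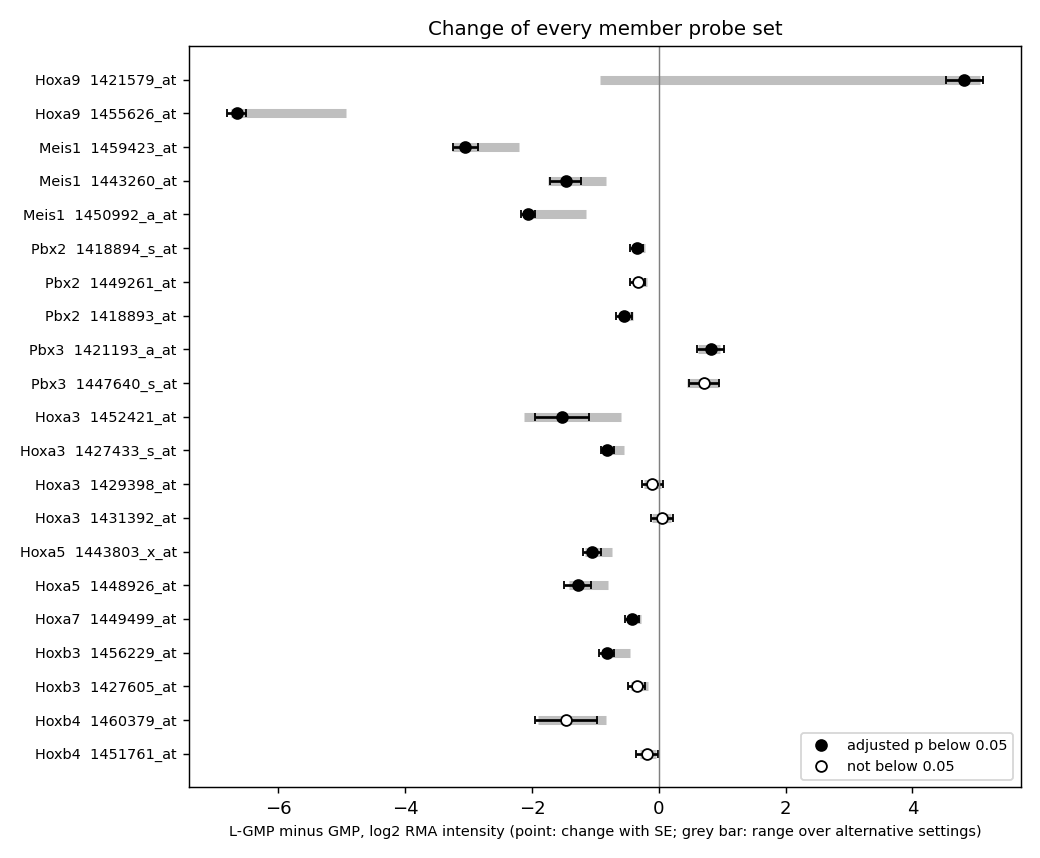
Change of each of the 21 probe sets, L-GMP minus GMP in log2 RMA intensity (horizontal axis). Points are the change with its SE, filled where the adjusted p was below 0.05 (14 of 21), and grey bars span the values under the alternative settings. The bar of Hoxa9 1421579_at crosses 0 through the mean of the gene's probe sets, at -0.92.

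The other clustered Hox genes on the arrays did not pass the threshold in limma. Of 40 probe sets of 30 genes or opposite-strand transcripts, 0 were called higher and 0 lower (3 had an unadjusted p under 0.05), with changes from -0.29 to 0.41 and a median of 0.01. Their signal was low: 35 of the 40 lay below the array median on every array, and 20 below the lower quartile on every array. Hoxc5, a HoxC cluster gene, had the lowest adjusted p and one of the largest changes (1456301_at, 0.41, SE 0.12, adjusted p = 0.0602). Hoxa10, the neighbour of Hoxa9 on its other side and an AML-associated Hox gene, read 2.92 ± 0.26 in L-GMPs and 2.70 ± 0.09 in GMPs (SD, n = 4 each) in its brighter probe set, a change of 0.22 (adjusted p = 0.353).

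**Figure D4:**
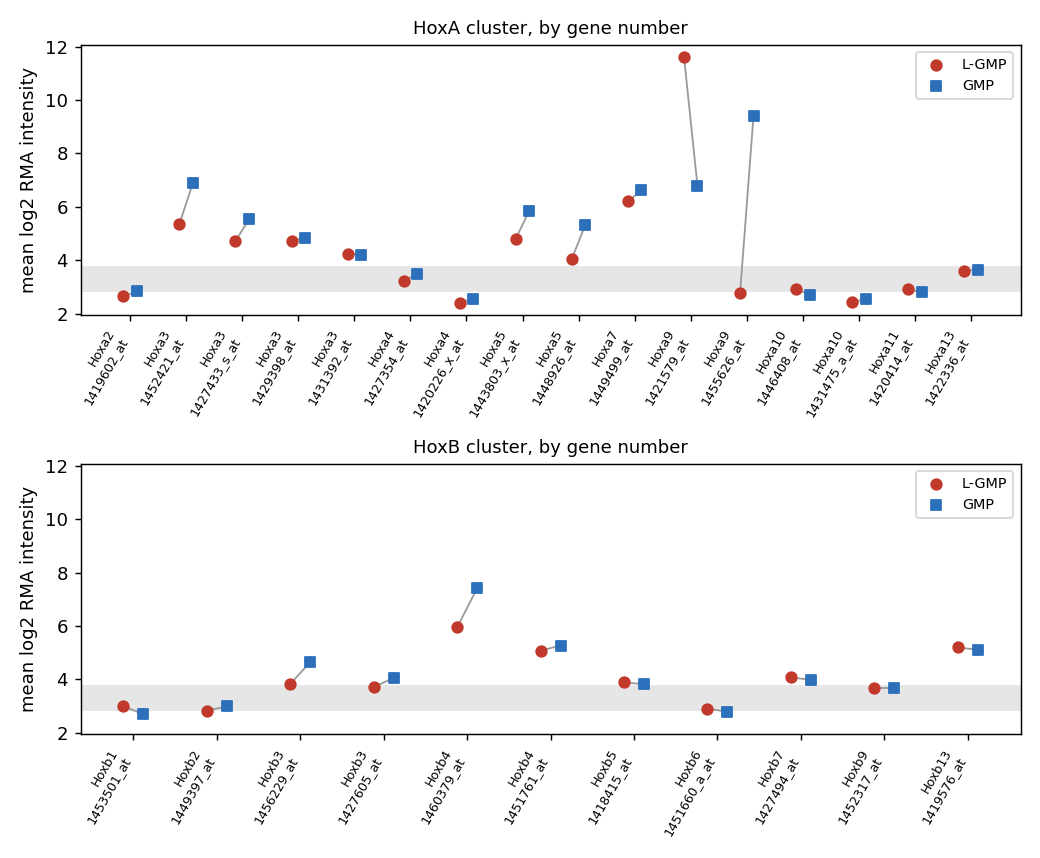
Mean log2 RMA intensity (vertical axis, n = 4 arrays per group) of each HoxA and HoxB probe set, ordered by gene number, in L-GMPs (red circles, left) and GMPs (blue squares, right). The grey band runs from 2.84 to 3.75. Probe sets of Hoxa3, Hoxa5, Hoxa7, Hoxa9 and Hoxb3 passed the threshold and those of Hoxb4 did not, while Hoxa2, Hoxa4, Hoxa10 and Hoxa11 lie within or under the band in both groups.

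Among other TALE genes, 8 genes were measured with 17 probe sets, of which 4 were called higher and 2 lower (median change 0.17). Over all probe sets, 3.89% were called higher and 7.03% lower. Pknox1, which encodes PREP1, a PBX partner that competes with MEIS1, was higher in L-GMPs in all 3 of its probe sets, by 0.54 to 0.76 (1450172_at, SE 0.17, adjusted p = 0.017). Pbx4 was higher by 0.55 in 1454912_at (SE 0.15, adjusted p = 0.0366) and had a change of -0.03 in 1449916_at. Tgif2, a TALE repressor, was lower in both of its probe sets, with changes of -2.07 in 1434400_at (SE 0.17, adjusted p = 3.57e-05) and -2.16 in 1431115_at (SE 0.14, adjusted p = 5.56e-06). Meis2 and Meis3, the closest relatives of Meis1, had changes of -0.18 to 0.21, none past the threshold.

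The call of Tgif2 1431115_at held in all alternatives. That of Pknox1 1450172_at was lost without GMP replicate D or L-GMP replicate A, and that of Pbx4 without GMP replicate B, C or D or L-GMP replicate B or C. The Pbx4 call was also lost with the replicate letter as a block. Both calls were lost in the fit without GMP replicate D and L-GMP replicate B.

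Of the regulators of Hox clusters, 25 genes were measured with 63 probe sets, 2 called higher and 14 lower (median change -0.13). Over all probe sets, 3.89% were called higher and 7.03% lower. Psip1, which encodes the KMT2A tether LEDGF, was lower in 3 probe sets, with changes of -0.71 to -0.93 (-0.93 in 1442148_at, SE 0.17, adjusted p = 0.00636). Men1 (menin) had changes of -0.42 and -0.55 (adjusted p = 0.0304 and 0.0448) and, in 1443826_x_at, of 0.37 (adjusted p = 0.121). Kmt2a itself had a change of -0.64 in 1452377_at (adjusted p = 0.0179) and of -0.44 in 1427283_at (adjusted p = 0.0965). Aff1 was also lower in its brightest probe set (1418135_at, -0.89, adjusted p = 0.000959), as was Aff4 (1450031_at, -0.48, adjusted p = 0.0241). Their other probe sets did not pass. Men1, Kmt2a, Aff1 and Aff4 are named here after their values were seen. Whether their calls held under the alternatives is not given here. Mllt3, which encodes the elongation cofactor AF9 and is also on the stem cell marker list below, fell by 1.55 on the log2 scale (1429205_at, SE 0.27, adjusted p = 0.0052). Cbx2, a Polycomb subunit, fell by 1.16 (1434116_at, SE 0.18, adjusted p = 0.00265). The brighter Cbx2 probe set, 1422059_at, had a change of -0.59 (adjusted p = 0.0425). Kdm6b, a demethylase that removes the Polycomb mark, was higher by 0.94 (1442643_at, SE 0.21, adjusted p = 0.0179), a call lost without GMP replicate B or L-GMP replicate C, and by 0.50 in 1447612_x_at (adjusted p = 0.0118). The remaining Kdm6b probe set, 1456610_at, had a change of 0.46 (adjusted p = 0.184). By gene, 1 of the 25 had a probe set called higher and 8 had a probe set called lower. The shares above are per probe set and cannot be set against these gene counts. A gene with several probe sets has more chances of a call. No probe set of Ezh2, Eed, Suz12, Rnf2, Ring1, Wdr5, Dot1l or Ctcf passed. The probe sets of Bmi1 had opposite signs, 0.20 (adjusted p = 0.41) and -0.45 (adjusted p = 0.0482).

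Among transcription factors and coactivators reported to bind with HOXA9, 10 genes were measured with 29 probe sets, 3 called higher and 1 lower (median change 0.14). Over all probe sets, 3.89% were called higher and 7.03% lower. The probe sets of Runx1, a core blood transcription factor, disagreed: 1427650_a_at and 1452530_a_at were higher, by 0.61 and 0.53 (adjusted p = 0.0205 and 0.0231), and 1440878_at was lower, with a change of -0.83 (SE 0.14, adjusted p = 0.00367). The other 3 had changes of -0.36 to 0.26, none past the threshold. Kmt2d, an enhancer methyltransferase, was higher by 0.58 (1427555_at, SE 0.16, adjusted p = 0.0401), a call lost without any single array other than L-GMP replicate B, and its brighter probe set 1435550_at had a change of 0.15 (adjusted p = 0.503).

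Marker lists of other cell types moved in different ways: some were lower in L-GMPs, the monocyte list was higher and others had no calls. Over all probe sets, 3.89% were called higher and 7.03% lower. In bulk samples, fewer cells of a type and less RNA per cell cannot be told apart. Of the stem and multipotent progenitor markers, 10 of 16 probe sets were lower and 0 higher in L-GMPs, and the summed linear intensity over the 8 genes was 160 to 288 on L-GMP arrays and 580 to 628 on GMP arrays. Of the megakaryocyte markers, 3 of 7 probe sets were lower, with sums of 175 to 244 on L-GMP arrays and 455 to 1960 on GMP arrays.

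The same held for 6 of 9 eosinophil, basophil and mast cell probe sets, with sums of 525 to 1210 on L-GMP arrays and 3160 to 9080 on GMP arrays. Erythroid markers (2 of 5 lower) summed to 104 to 146 on L-GMP arrays and 188 to 328 on GMP arrays, and neutrophil markers (2 of 7 lower) to 225 to 1210 on L-GMP arrays and 822 to 4200 on GMP arrays. Monocyte markers were higher in 5 of 8 probe sets, with sums of 10200 to 14100 on L-GMP arrays and 4740 to 5470 on GMP arrays. The monocyte probe sets not called were all of Csf1r, named here after its values were seen. Their changes were -0.24, -0.24 and 0.05. B cell, T and NK cell, and stromal and endothelial markers had 0 calls among 9, 4 and 12 probe sets (1, 0 and 1 with an unadjusted p under 0.05 in limma).

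The markers of the GMP itself were present in both groups, summing to 26600 to 32800 on L-GMP arrays and 40800 to 45100 on GMP arrays, and 5 of 10 probe sets were lower. Below the lower quartile on every array lay Fgd5 of the stem cell list, Ncr1 of the T and NK cell list and Kdr of the stromal and endothelial list. Whether cell make-up had a part in the Hox and Meis1 results was not tested.

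The genes most like the brighter Hoxa9 probe set, by root mean square difference over the 8 arrays after centring each profile on its GMP mean, were Klhl41 (0.485), E330020D12Rik (0.519) and F7 (0.652). Those most like Meis1 1459423_at were Spns2 (0.214), Ptger4 (0.268) and 4930480K15Rik (0.279). Spns2, a transporter of the lipid signal sphingosine 1-phosphate, averaged 3.52 ± 0.30 in L-GMPs and 6.40 ± 0.07 in GMPs (SD, n = 4 each). The measure follows the group difference above all, since the 8 arrays fall into 2 groups.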

How the data were processed

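Total RNA of sorted cells was isolated with Trizol and a cleanup kit, per the labels' protocols. The authors deposited linear intensities made with RMA, per the submitters' processing notes, with its version and the genome build not given in the sources used here. The labels' protocols name a sense-strand whole transcript assay, but the probe set names belong to a 3' expression array design, so the strand and part of a transcript read are unknown. Log2 was taken, and 64 control probe sets of 45101 were left out. Of the other 45037, 34945 had 1 symbol in the platform annotation, 932 several and 9160 none.

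Group differences were fitted with limma 3.58.1 in R 4.3.3, by lmFit and eBayes with group as the only term, 2-sided, with Benjamini-Hochberg adjustment over all 45037 probe sets at 0.05. The fit was tested on simulated data. Pairs of probe sets of a gene were compared by exact permutation over arrays (scipy 1.17.1). The members, lists and tests were chosen with earlier results of these data known. The naming rule was every member probe set, up to 4 genes per pathway list by size of change among those past the threshold, and 3 genes by likeness to Hoxa9 and to Meis1. It also allowed up to 3 genes per marker list, which are given here as counts and sums only. Probe sets with the suffix _s_at or _x_at can match several transcripts, by the maker's naming. Some listed genes were not analysed here. The number of arrays limits the precision.

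Alternatives were 2 scalings, 2 filters on dim probe sets, 1 probe set or the mean per gene, an offset of 16, weights per array, a trended and robust prior, a block on the replicate letter, and leaving out each array. A fit without GMP replicate D and L-GMP replicate B was chosen after seeing the data.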

Additional observations from a re-analysis of the deposited data

Results flagged for a closer look

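Of 60 groups of 4 arrays looked at, those of the 21 probe sets and of 9 further named probe sets, 5 had an array whose gap to the nearest of the others was too large a part of the group's range by Dixon's critical value for 4 values. Chance flags about 1 in 20 groups. L-GMP replicate B was such an array in 3 of the 5. It read 4.48 in Meis1 1443260_at, against 3.34 to 3.50 on the other L-GMP arrays, and 3.64 in Hoxb3 1456229_at, against 3.87 to 3.91. It also read 6.55 in Psip1 1442148_at, against 5.81 to 5.93. GMP replicate A read 3.82 in Pbx3 1447640_s_at, against 4.40 to 4.43 on the other GMP arrays. GMP replicate D read 6.76 in Tgif2 1431115_at, against 7.13 to 7.19. The cause of these gaps was not tested.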

How the results depend on the processing

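Of 364 comparisons of a probe set of the 9 genes with an alternative setting, 307 kept direction and side of the threshold, 44 lost the call, 5 gained it and 8 changed sign. Of the 14 probe sets called, 8 kept direction and call in all of their alternatives: Hoxa9 1455626_at (-6.74 to -4.94), the 3 of Meis1, Hoxa3 1427433_s_at, both of Hoxa5 and Hoxb3 1456229_at. The 8 changes of sign were those of Hoxa9 1421579_at in the mean of its probe sets (-0.92), of Hoxa3 1429398_at after median centring (0.04) and quantile normalization (0.02), and of Hoxa3 1431392_at with array weights (-0.03) and without GMP replicate D and L-GMP replicate B (-0.09), and 3 with a single array left out: Hoxa3 1429398_at without GMP replicate B (0.03), and 1431392_at without GMP replicate A (-0.05) or L-GMP replicate B (-0.10).

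With single arrays left out, Hoxa3 1429398_at ranged from -0.24 to 0.03, Hoxa3 1431392_at from -0.10 to 0.14, and the shift between Pbx2 1418894_s_at and 1449261_at from -0.09 to 0.06. Calls among the 21 probe sets then numbered 9 (without GMP replicate D) to 13 (without L-GMP replicate B). In these fits 7.2% and 10.8% of all probe sets were called. Calls among all probe sets ran from 2972 (6.6%, without GMP replicate B) to 5334 (11.8%, without GMP replicate A). They numbered 3244 without GMP replicate D. The brightest probe set per gene gave calls in 8 of the 9 genes, against 2193 (12.1%) of all genes. The mean per gene gave 8 of 9, against 2569 (14.1%) of all genes. Leaving out the dimmest 50% of probe sets gave 8 of 10, against 17.6% of all probe sets kept. The cause of these differences was not tested. Calls higher in L-GMPs made up 35.6% of all calls as deposited, 65.9% after median centring and 46.8% after quantile normalization.

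Deviations of same-lettered arrays correlated at -0.037, -0.001, -0.070 and 0.103, and those of differently lettered arrays at -0.129 to 0.095. With so few arrays, these values do not settle whether the letters pair the samples. With the replicate block, 11 of the 21 probe sets passed, against 4077 (9.05%) of all probe sets. Array signal limits Hoxa9 1455626_at and the dim probe sets of Meis1 and Hoxb3 in L-GMPs.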
